A study of Homo sapiens with 2 samples.

Results

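The genes described here make and use reducing power in the cell. They are 43 genes of the NRF2, glutathione and thioredoxin systems, taken by symbol from a list grouped by role, which was drawn up with earlier results of these data known. The deposited table lists 42 of them among its 13137 genes, and PRDX2 was not analysed here. Of the 42, 41 had at least 20 tags in the libraries together, and MAFF, with 6 tags, did not.

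A549 is a human lung adenocarcinoma cell line. In this comparison the cells carried a lentiviral hairpin driven by a doxycycline-inducible H1 promoter, either against SOX2 (shRNA-SOX2) or with a scrambled sequence (shRNA-Con, the control), and each line was a puromycin-selected polyclone. Both lines received doxycycline for 4 days, and 4 µg of total RNA from each went into 1 digital gene expression library, in which a short tag is counted from each captured mRNA. The library of shRNA-Con held 2304184 tags on genes, and the library labelled shRNA-SOX2 held 2093816. SOX2, the targeted gene, had 16 control tags and 23 in the library that carries its name, a ratio of 1.58 (95% interval 0.80 to 3.20, adjusted p = 0.333, Fisher's exact test), so the label was not borne out by a lower SOX2 count. The table abbreviates both libraries, and which column belongs to which line was read from the initials. Directions below are therefore given for the library as labelled. Among epithelial markers KRT8 and KRT18 were abundant in both libraries. KRT8 was higher under the SOX2 label (7702 control tags against 12729) and KRT18 was lower (10318 and 7887). KRT7 was also lower (3899 and 1606), KRT19 was higher (35 and 127), CDH1 had 50 tags in each and EPCAM had 8 and 4. The part of these epithelial differences in the results was not tested. The leukocyte and endothelial markers measured (PTPRC, CD14 and PECAM1) had at most 11 tags in a library.

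NRF2, the product of NFE2L2, is a transcription factor that pairs with a small MAF protein and binds the antioxidant response element, while KEAP1 marks it for destruction until electrophiles or oxidants block that step. Its targets make glutathione, recycle thioredoxin, supply NADPH and conjugate or reduce reactive compounds. A549 cells are known for a KEAP1 protein with impaired function, and therefore for a high activity of NRF2 in culture. The transcript level of NFE2L2 is only part of this control, because NRF2 is regulated largely through its protein.

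The antioxidant response element is written here as TGACNNNGC, the core letters of the NRF2 and small MAF site. RefSeq promoter windows (GRCh38.p14, 250 bases before to 50 after a start site) were at hand for 33 of the 42 measured genes, and 13 of these 33 (39.4%) held the letters on either strand in at least 1 window. Over all 27305 gene symbols with windows, 16.1% held them in at least 1 window. Of all 35116 windows 13.3% held the letters, against 14 of the 47 windows of these genes (29.8%). The list was drawn up to hold genes of the NRF2 system, so these shares are a description and not a test. The matches of the 8 genes that differed between the libraries are printed to show the sites beside the direction of each gene. That of GCLM, which did not pass the threshold (adjusted p = 0.429, Fisher's exact test), is printed too. KEAP1, GSTO1, CBR1 and MAFF also held matches and did not pass, and theirs are not printed. Each run is given 5′ to 3′ on the strand of the match, and capitals mark the 9 matching letters.
GPX2, chr14:64942849-64942877, plus strand, 122 bases upstream of the start: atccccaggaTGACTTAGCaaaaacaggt
MGST1, chr12:16347135-16347163, plus strand, 30 bases downstream: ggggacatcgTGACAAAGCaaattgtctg
GSTA4, chr6:52995275-52995303, minus strand, 9 bases upstream: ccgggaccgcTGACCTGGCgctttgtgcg
EPHX1, chr1:225825266-225825294, plus strand, 78 bases upstream: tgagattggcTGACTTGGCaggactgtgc
ME1, chr6:83431170-83431198, minus strand, 137 bases upstream: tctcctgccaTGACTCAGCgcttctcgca
ME1, chr6:83431022-83431050, plus strand, 11 bases downstream: gctgctggggTGACGGTGCtgactgcagc
GSTP1, chr11:67583736-67583764, plus strand, 66 bases upstream: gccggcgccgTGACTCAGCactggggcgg
TXNRD1, chr12:104215670-104215698, plus strand, 99 bases upstream: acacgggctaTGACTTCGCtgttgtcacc
TXNRD1, chr12:104215761-104215789, minus strand, 8 bases upstream: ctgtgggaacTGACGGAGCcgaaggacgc
TXNRD1, chr12:104286920-104286948, minus strand, 102 bases upstream of another start: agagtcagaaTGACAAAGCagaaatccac
PGD, chr1:10398853-10398881, minus strand, 201 bases upstream: agcacctagaTGACATTGCcccggcgagg
GCLM, chr1:93909446-93909474, plus strand, 34 bases upstream: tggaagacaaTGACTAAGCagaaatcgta
These letters stood within the windows of genes with more tags in the library labelled shRNA-SOX2 (GPX2, MGST1, GSTA4, EPHX1 and ME1) and of genes with fewer (GSTP1, TXNRD1 and PGD). Among genes with at least 20 tags, the 12 with a match had a median log2 fold change of 0.30 (5 higher, 3 lower and 4 not past the threshold), and the 20 with a window and no match had 0.01 (6 higher, 5 lower and 9 not past it). A match is a run of letters and not a measured site. Sequence outside these windows was not searched, so a gene without a match may hold the letters elsewhere.

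The share of all gene tags that fell on a gene was compared between the libraries with Fisher's exact test (two-sided), adjusted over all genes of the table and called past an FDR of 0.001. With 1 library per condition this test compares the libraries and not the conditions, and the intervals given are 95% Clopper-Pearson intervals that cover counting error only. Of the 42 genes, 15 (35.7%) were higher under the SOX2 label, against 9.53% of all genes, and 11 (26.2%) were lower, against 12.2%. These genes are abundant, with a median of 758 tags against 89 for all genes, and deep genes pass such a test more often. Among genes with at least 200 tags the shares were closer, 11 of 34 higher (32.4%, against 20.7% of all such genes) and 11 lower (32.4%, against 27.4%). At least 2-fold differences were found in 7 genes higher (17.1% of the 41 with at least 20 tags, against 10.4% of all genes) and in 2 genes lower (4.88%, against 13%). The median log2 fold change of the 41 genes was 0.23, where the median of all 10045 genes with at least 20 tags was -0.10. Genes of the list thus differed in both directions. In such bulk RNA, fewer cells of a kind and less RNA per cell cannot be told apart.

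**Figure D1:**
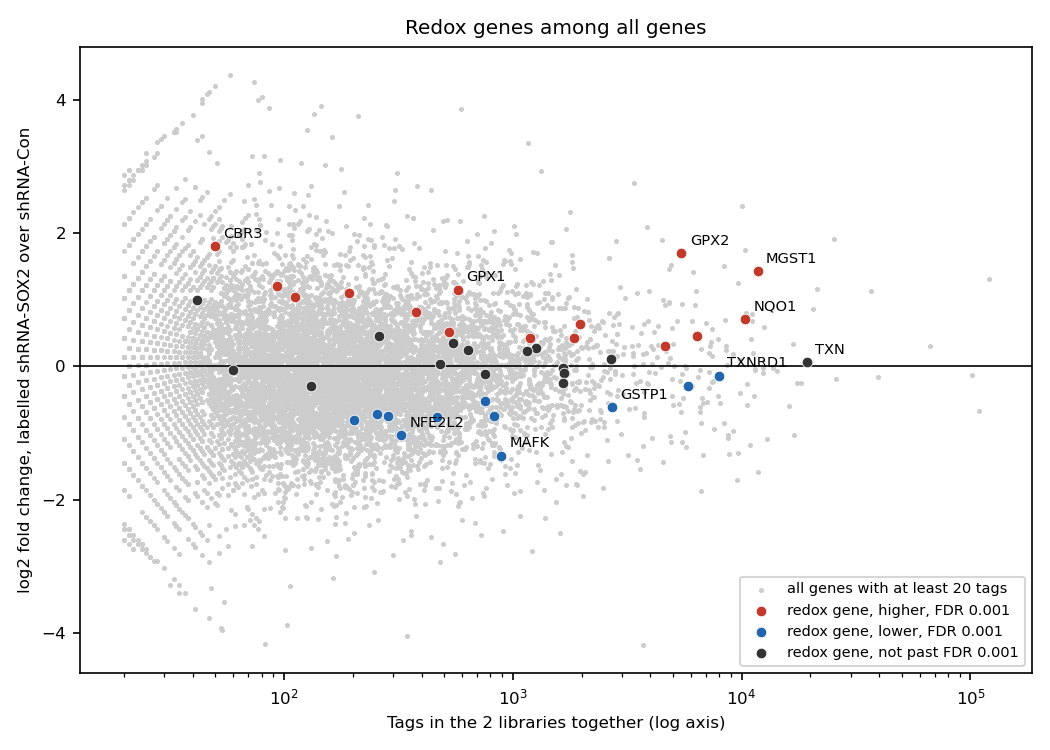
Each point is a gene with at least 20 tags, placed by its tags in the 2 libraries together (x, log axis) and its log2 fold change, labelled shRNA-SOX2 over shRNA-Con (y). The redox genes lie on both sides of 0, with GPX2 (1.70) and MGST1 (1.43) standing high among the abundant genes and MAFK (-1.34) the lowest of the list.

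Of the 5 regulators of the pathway, 3 (60%) had fewer tags past the threshold in the library labelled shRNA-SOX2, and none had more. Of all genes 12.2% were lower and 9.53% higher. Among genes with at least 200 tags, a depth that these 3 reached, 27.4% were lower. NFE2L2, which encodes NRF2, had 225 control tags against 100 in the library labelled shRNA-SOX2, a 2.04-fold lower share (95% interval 1.61 to 2.61). Its partner MAFK went from 654 tags to 235, 2.53-fold lower (2.18 to 2.95), and MAFG from 303 to 163, 1.69-fold lower (1.39 to 2.06). By Fisher's exact test the adjusted p was 1.63e-36 for MAFK, 8.05e-09 for NFE2L2 and 3.4e-07 for MAFG. MAFF, the third small MAF gene, had 6 tags and 0, and a count of 0 allows up to 3, so at this depth its difference did not pass (adjusted p = 0.0784, Fisher's exact test).

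KEAP1, the inhibitor of NRF2, had 255 control tags against 296 in the library labelled shRNA-SOX2. This was a log2 fold change of 0.35 whose adjusted p of 0.0139 by Fisher's exact test missed the threshold. The 5 regulators together held 0.0626% of gene tags in the control and 0.0379% under the SOX2 label. In GENCODE release 29 exons of NFE2L2 and MAFK share bases with genes of the opposite strand (AGPS and TMEM184A), and exons of MAFG with SIRT7 on the same strand. The counting is not stated to use strand, so the values of these genes, and of the 13 measured genes with such an opposite neighbour (EPHX1, NQO1, PRDX1 and MGST2 among them), are uncertain to that extent.

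The listed enzymes that make and regenerate glutathione were lower where they passed the test (GCLC, GSS and GSR, with GCLM not past it). Of the 4 glutathione peroxidases of the list 3 were higher. Of all genes 9.53% were higher and 12.2% lower, and of genes with at least 200 tags 20.7% and 27.4%. GCLC, the catalytic subunit of the rate-limiting ligase, had 463 control tags against 293 in the library labelled shRNA-SOX2, 1.44-fold lower (1.24 to 1.67). GSS, glutathione synthetase, had 165 and 91 tags (1.65-fold lower, 1.27 to 2.15), and GSR, which reduces oxidized glutathione with NADPH, had 133 and 69 (1.75-fold lower, 1.30 to 2.38). The modifier subunit GCLM had 413 and 347 tags, a ratio of 0.925 with an interval from 0.799 to 1.07. GSS and GSR passed narrowly, with adjusted p-values of 0.000612 and 0.000636 in Fisher's exact test, and both missed FDR 0.001 with TMM factors (0.00233 and 0.00224).

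GPX2, the gastrointestinal-type selenium peroxidase, had 1385 control tags against 4079 in the library labelled shRNA-SOX2, a 3.24-fold higher share (3.05 to 3.45). GPX1, the ubiquitous cytosolic form, had 191 and 386 tags, 2.22-fold higher (1.87 to 2.66), and GPX4, which reduces lipid hydroperoxides in membranes, had 835 and 1022, 1.35-fold higher (1.23 to 1.48). All 3 passed FDR 0.001, and GPX2 and GPX1 were past 2-fold. GPX3, the secreted form, was rare, with 15 and 27 tags and a ratio of 1.98 (1.02 to 4.01), and did not pass (adjusted p = 0.1, Fisher's exact test).

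Among the glutathione transferases GSTP1 was lower, and MGST1, MGST2, GSTA4 and GSTM3 were higher. GSTP1, the soluble pi-class transferase, had 1696 control tags against 1008 in the library labelled shRNA-SOX2, 1.53-fold lower (1.41 to 1.65). MGST1, a membrane transferase of the endoplasmic reticulum and outer mitochondrial membrane, had 3408 and 8350 tags, 2.70-fold higher (2.59 to 2.81). MGST2, a related membrane enzyme, had 65 and 127 tags, 2.15-fold higher (1.58 to 2.95). MGST3, with 32 and 28 tags, had a ratio of 0.963 and an interval as wide as 0.559 to 1.65.

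GSTA4, which conjugates the lipid aldehyde 4-hydroxynonenal, had 30 control tags against 63 in the library labelled shRNA-SOX2, 2.31-fold higher (1.47 to 3.70). GSTM3, of the mu class, had 39 and 73 tags, 2.06-fold higher (1.38 to 3.12). Both were just past the threshold (adjusted p = 0.000517 and 0.000945, Fisher's exact test) and missed it when clean tags set the scale (0.00218 and 0.00443). GSTM3 has close relatives among the mu-class genes, and how tags common to several genes were assigned is not stated. GSTO1, an omega-class enzyme, had 251 and 233 tags, a ratio of 1.02 (0.851 to 1.23).

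In all, 7 of the 15 glutathione genes were higher (46.7%), 4 were lower (26.7%) and 4 did not pass. Of all genes 9.53% were higher and 12.2% lower, and of genes with at least 200 tags 20.7% and 27.4%. Together the 15 genes took 0.396% of the control gene tags against 0.774% under the SOX2 label. Without GPX2 and MGST1 the other 13 genes held 0.188% and 0.18%.

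**Figure D2:**
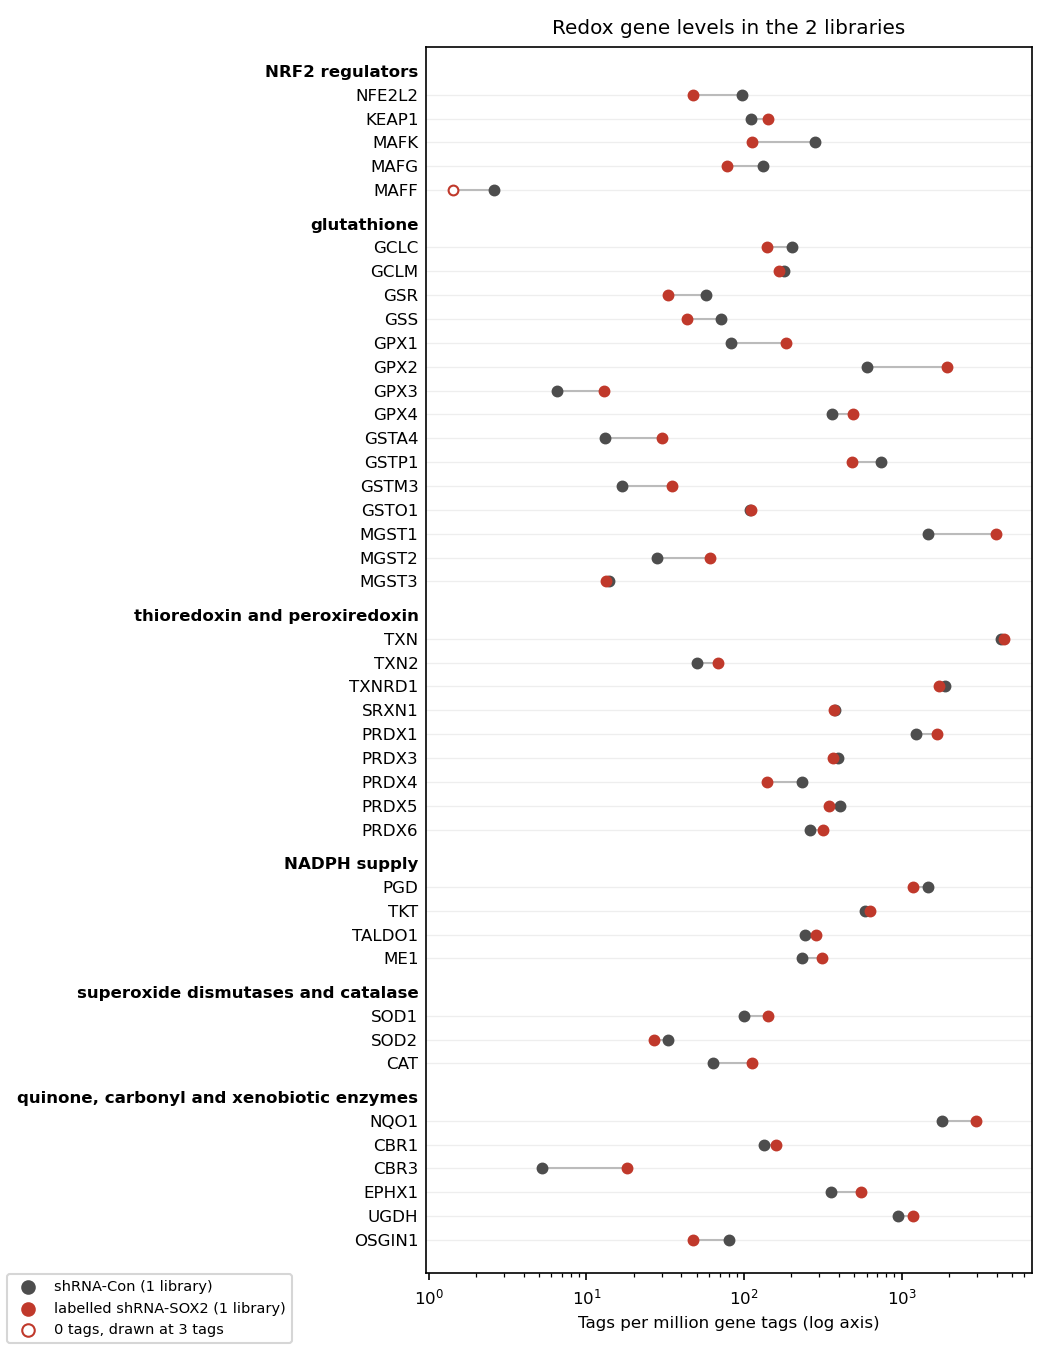
Level (x, log axis, CPM, tags scaled to the gene tags of the library) of the 42 measured genes by role, with 1 point for each library joined by a line, and a count of 0 drawn open at 3 tags. The widest lines among abundant genes belong to GPX2 and MGST1, while the 2 points of TXN, SRXN1 and GSTO1 nearly coincide.

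Of the 9 measured thioredoxin and peroxiredoxin genes 1 was higher, 2 were lower and 6 did not pass. These were 11.1% and 22.2%, against 9.53% and 12.2% of all genes, and 20.7% and 27.4% of genes with at least 200 tags. TXN, thioredoxin itself, was the gene of the list with the most tags in each library, 9911 control tags against 9403 in the library labelled shRNA-SOX2, which gave a ratio of 1.04 (1.01 to 1.07). TXNRD1, the selenium enzyme that reduces it with NADPH, had 4369 and 3599 tags, a ratio of 0.907 (0.867 to 0.948). TXNRD1 passed the test (adjusted p = 7.46e-05, Fisher's exact test), but with TMM factors its log2 fold change went from -0.14 to -0.07 and the adjusted p to 0.0838. SRXN1, sulfiredoxin, which repairs overoxidized peroxiredoxins, had 874 and 779 tags (ratio 0.981, 0.889 to 1.08), and TXN2, the mitochondrial thioredoxin, had 116 and 144 (1.37, 1.06 to 1.76; adjusted p = 0.0364, Fisher's exact test).

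Of the peroxiredoxins, thiol peroxidases that thioredoxin reduces in most cases, PRDX1 was higher and PRDX4 was lower. PRDX1, a cytosolic form, had 2847 control tags against 3530 in the library labelled shRNA-SOX2, 1.36-fold higher (1.30 to 1.43). PRDX4, the form of the endoplasmic reticulum, had 538 and 291 tags, 1.68-fold lower (1.45 to 1.94). The other measured forms were within a log2 fold change of -0.25 (PRDX5, 942 and 721 tags) to 0.27 (PRDX6, 607 and 664 tags), with mitochondrial PRDX3 at -0.10 (911 and 770 tags). None of these 3 passed FDR 0.001, and PRDX5 and PRDX6 had adjusted p-values of 0.00222 and 0.00395 in Fisher's exact test. No gene of the thioredoxin group differed 2-fold, and its share of gene tags was 0.916% and 0.95%. Pseudogenes carry the names of 10 measured genes of the list in GENCODE release 29, 7 of them for TXN and 2 for GPX1. The others are PRDX1, PRDX3, PRDX4, GSTM3, GSTP1, PGD, SOD1 and SOD2. Tags of these 10 genes may be shared with copies.

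The 4 genes of the list that supply NADPH showed small differences, with 1 higher and 1 lower past the threshold. These were 25% each, against 9.53% and 12.2% of all genes. Among genes with at least 200 tags the shares were 20.7% and 27.4%. PGD, of the pentose phosphate pathway, had 3374 control tags against 2483 in the library labelled shRNA-SOX2, 1.23-fold lower (1.17 to 1.30). ME1, cytosolic malic enzyme, had 535 and 654 tags, 1.35-fold higher (1.20 to 1.51). TKT and TALDO1, of the nonoxidative branch, had ratios of 1.08 (1353 and 1324 tags) and 1.17 (563 and 598 tags) and did not pass. The 4 genes held 0.253% and 0.242% of gene tags.

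Superoxide and peroxide are also removed without glutathione or thioredoxin. CAT, catalase, had 146 control tags against 234 in the library labelled shRNA-SOX2, 1.76-fold higher (1.43 to 2.18). SOD1, the copper-zinc dismutase, had 231 and 298 tags, 1.42-fold higher (1.19 to 1.69), and missed the threshold with clean tags (adjusted p = 0.00686, Fisher's exact test). SOD2, the mitochondrial manganese form, had 76 and 56 tags and did not pass (ratio 0.811, 0.564 to 1.16).

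The quinone, carbonyl and xenobiotic enzymes were mostly higher, with 4 of 6 past the threshold upward and 1 downward. These were 66.7% and 16.7%, against 9.53% and 12.2% of all genes. Among genes with at least 200 tags, a depth that all of the group but CBR3 reached, 20.7% were higher and 27.4% lower. NQO1, the quinone reductase used most often as a readout of NRF2, had 4179 control tags against 6200 in the library labelled shRNA-SOX2, 1.63-fold higher (1.57 to 1.70). EPHX1, microsomal epoxide hydrolase, had 816 and 1155 tags (1.56-fold, 1.42 to 1.71), and UGDH, which makes UDP-glucuronate for glucuronidation, had 2198 and 2454 (1.23-fold, 1.16 to 1.30). These 3 are abundant genes with narrow intervals.

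The carbonyl reductases stood apart in depth. CBR3 had 12 control tags against 38 in the library labelled shRNA-SOX2, 3.48-fold higher with a wide interval (1.78 to 7.33), and CBR1 had 308 and 333 (1.19-fold, 1.02 to 1.39, not past the threshold). CBR3 overlaps an antisense gene, CBR3-AS1, whose tags may not be told apart from its own. OSGIN1, an oxidative stress-induced growth inhibitor and NRF2 target, was the exception in this group, with 185 and 100 tags (1.68-fold lower, 1.31 to 2.17).

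**Figure D3:**
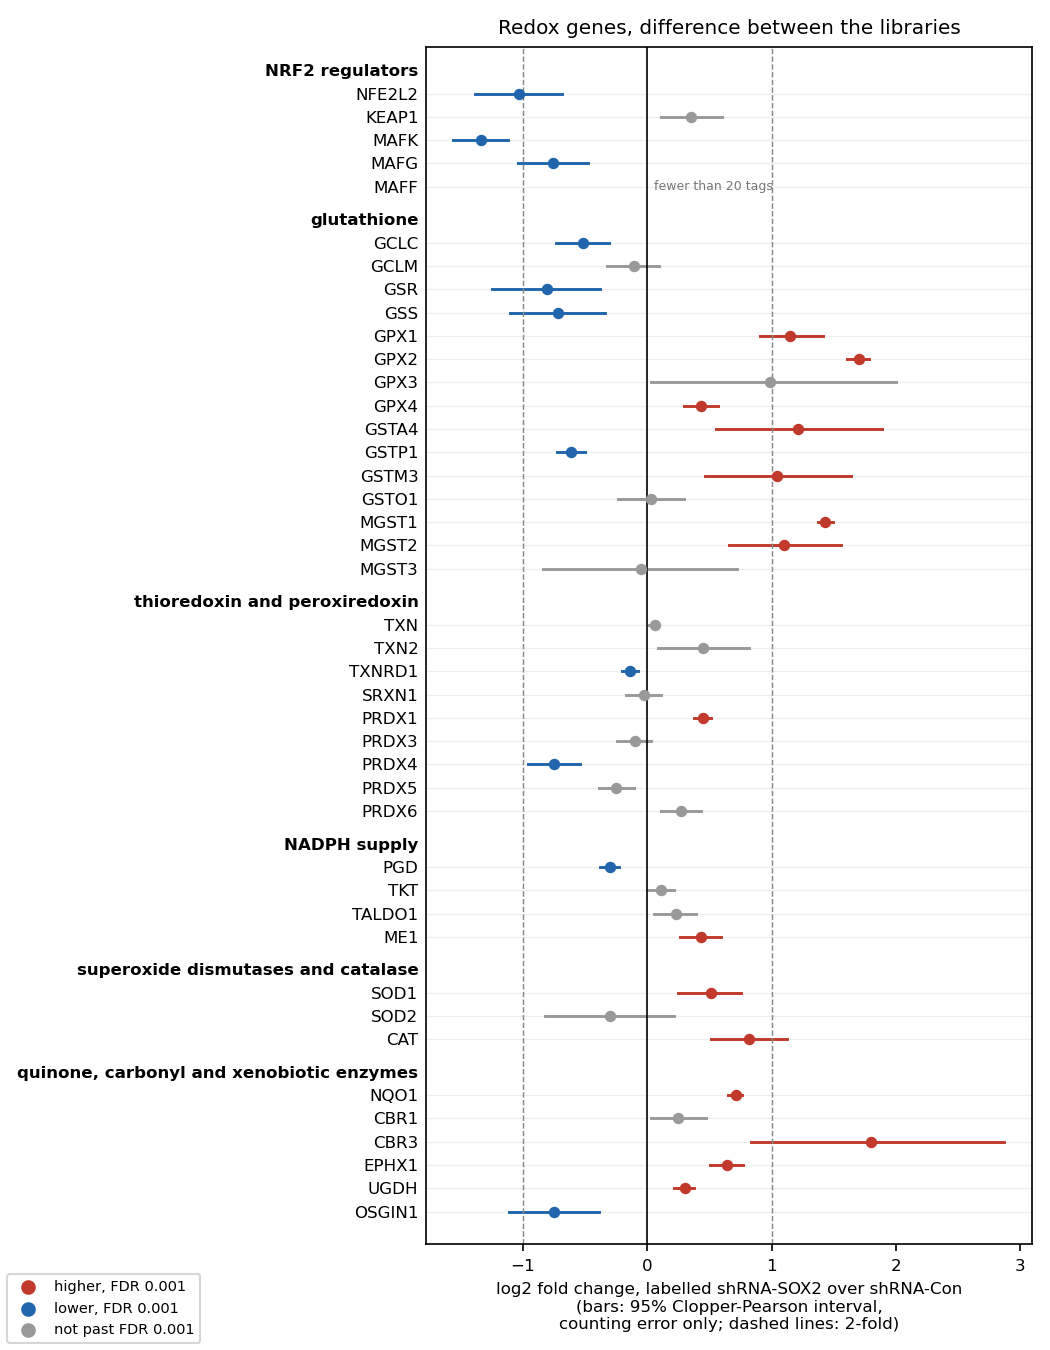
The log2 fold change of each measured gene (x, labelled shRNA-SOX2 over shRNA-Con) by role, with bars for the 95% Clopper-Pearson interval from counting error and dashed lines at 2-fold. Of the 42 genes 15 lie to the right and 11 to the left past FDR 0.001, NFE2L2, MAFK and MAFG among those on the left, and CBR3, GPX2 and MGST1 farthest to the right.

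A second list of 65 genes from the same pathways, of which 56 were measured, gave shares nearer to those of all genes. In it 6 genes (10.7%, against 9.53% of all genes) were higher and 9 (16.1%, against 12.2%) were lower past FDR 0.001, and the median log2 fold change of the 53 with at least 20 tags was -0.03. BACH1, the repressor that competes with NRF2 for the small MAF proteins, had 29 control tags against 4 in the library labelled shRNA-SOX2, 6.59-fold lower with an interval from 2.31 to 25.8. The other regulators of this list included none that was higher.

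Of the 18 measured glutathione genes of the second list 1 was higher, 3 were lower and 14 did not pass. The called genes were 5.56% and 16.7%, against 9.53% and 12.2% of all genes. SLC7A11, the cystine transporter that feeds glutathione synthesis, had 1229 control tags against 712 in the library labelled shRNA-SOX2, 1.57-fold lower (1.43 to 1.72). Its partner chain SLC3A2, named after its values were seen, had 1815 and 766 tags, 2.15-fold lower (1.98 to 2.35). GLRX, glutaredoxin, had 446 and 172 tags, 2.36-fold lower (1.97 to 2.83). TXNIP, the thioredoxin-interacting protein, had 38 and 17 tags and did not pass (adjusted p = 0.0407, Fisher's exact test).

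Of the 10 measured NADPH genes of the second list 3 were lower and 1 was higher. These were 30% and 10%, against 12.2% and 9.53% of all genes. PGLS, the lactonase of the pentose phosphate pathway, had 241 control tags against 83 in the library labelled shRNA-SOX2, 2.64-fold lower (2.05 to 3.43). ME2, mitochondrial malic enzyme, had 157 and 61 tags (2.34-fold lower, 1.73 to 3.20), and NADK, which phosphorylates NAD to NADP, had 111 and 45 (2.24-fold lower, 1.57 to 3.24). IDH1, cytosolic isocitrate dehydrogenase, was higher, with 177 and 263 tags (1.64-fold, 1.35 to 1.99).

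Of the 8 measured quinone, carbonyl and xenobiotic genes of the second list 2 were higher (25%, against 9.53% of all genes) and none was lower. HMOX1, heme oxygenase 1, which breaks down heme and answers to NRF2 and BACH1, had 3437 control tags against 5039 in the library labelled shRNA-SOX2, 1.61-fold higher (1.54 to 1.69). SESN1, a sestrin and p53 target, had 23 and 82 tags (3.92-fold higher, 2.45 to 6.53). GSTK1, the mitochondrial and peroxisomal kappa-class transferase, had 267 and 430 tags (1.77-fold, 1.52 to 2.07), and PTGR1, a prostaglandin reductase, had 958 and 1048 (1.20-fold, 1.10 to 1.32).

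**Figure D4:**
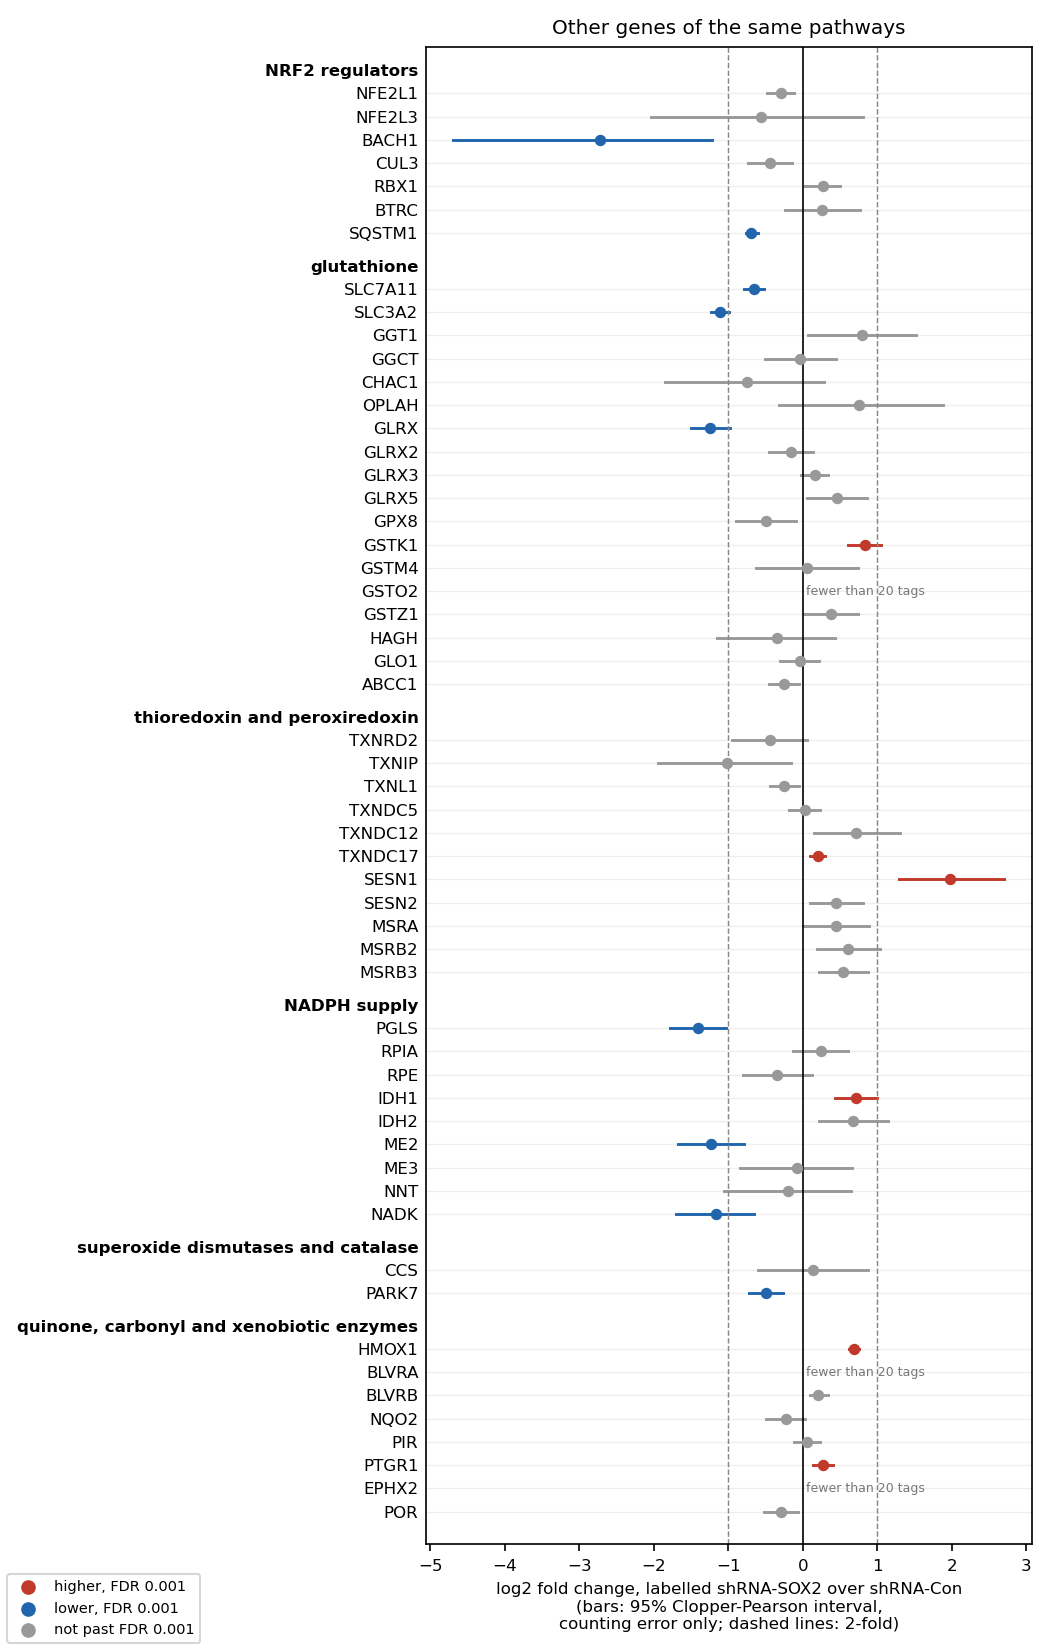
The log2 fold change (x, labelled shRNA-SOX2 over shRNA-Con) of measured genes of the second list by role, with 95% Clopper-Pearson bars from counting error and dashed lines at 2-fold. BACH1 lies farthest left and SESN1 farthest right, and genes with fewer than 20 tags are named without a point.

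With no second library of either line, the spread between cultures is unknown. When a biological coefficient of variation of 0.1 was assumed in edgeR's exact test, 4 of the 42 genes stayed past FDR 0.001 (GPX2, MGST1 and GPX1 higher and MAFK lower), where 3.9% of all genes were higher and 4.98% lower. With 0.2 none of the 42 did (0 of 42, with 10 at an unadjusted p under 0.05), where 0.495% of all genes were higher and 0.365% lower.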

How the data were processed

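Digital gene expression libraries of A549 cells were analysed, 1 per condition. The authors selected mRNA with oligo(dT) and deposited tag counts per Entrez Gene ID. Build hg19 is named in the submitters' processing notes. The aligner and annotation are not given in the sources used here. The deposited TPM, the authors' tags scaled to clean tags, served only to recover clean tags (3516266 for shRNA-Con, 3456234 for shRNA-SOX2). The authors' deposited log2 ratio, p-value and FDR were not used. Columns abbreviated SC and S1 were read as shRNA-Con and shRNA-SOX2.

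Fold changes are shares of gene tags, shRNA-SOX2 (as labelled) divided by shRNA-Con, with counts below 3 set to 3. Two-sided Fisher's exact tests, with adjustment by Benjamini-Hochberg, covered all 13137 genes (Python 3.11.15, scipy 1.17.1) and was tested on simulated data. Rows with no symbol held 0.0535% and 0.0372% of gene tags. Alternatives were TMM factors, the median ratio, clean tags, minimum tags, FDR 0.05, 0.5 added to each count, and edgeR's exact test with an assumed coefficient of variation (R 4.3.3, edgeR 4.0.16, DESeq2 1.42.0). The genes named are all members, the 5 largest called changes in each direction of the second list, and HMOX1, SLC7A11 and TXNIP. SLC3A2 was added after its values were seen, and another gene that the rule names is not reported here. Members and lists were chosen with earlier results of these data known. Promoter windows come from RefSeq on GRCh38.p14 and were not joined to hg19 positions.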

Additional observations from a re-analysis of the deposited data

How the results depend on the processing

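No paired analysis was possible because there is only 1 library of each line, which also means that none could be left out. Of the 42 genes, 15 were higher and 11 lower. With TMM factors or the median ratio the counts were 17 and 8, with clean tags 12 and 12, with at least 10 tags 15 and 11, and with FDR 0.05 they were 20 and 12. An assumed coefficient of variation of 0.1 left 3 higher and 1 lower, and 0.2 and 0.4 left 0 of each by edgeR's exact test, with 10 and 1 genes at an unadjusted p under 0.05. In the second list 0.2 left 0 higher and 0 lower of 6 and 9. At least 2-fold higher were 7 genes, 8 with TMM factors or the median ratio and 5 with clean tags. At least 2-fold lower were 2 genes, 1 with TMM factors or the median ratio and 2 with clean tags. The median log2 fold change of 0.23 was 0.30 with TMM factors or the median ratio, 0.11 with clean tags and 0.17 with at least 50 tags. Clean tags moved the median of all genes by -0.11, from -0.10 to -0.22. The share of lower calls over all genes was 56.1%, and it was 66.6% with clean tags, 49.4% with TMM factors and 49.7% by the median ratio. Of the 26 genes called, none changed direction with TMM factors, clean tags or 0.5 added to each count. TMM factors and clean tags move every gene alike, by about 0.07 and -0.11. The smallest called log2 fold change was -0.14 (TXNRD1). Adding 0.5 moved CBR3, the called gene with the fewest tags, from 1.80 to 1.76. A reversal was therefore not possible, and its absence is no test of the directions. GSR, GSS and TXNRD1 lost the call with TMM factors, and GSTA4, GSTM3 and SOD1 with clean tags. Depth limits MAFF, CBR3, GPX3 and MGST3, which have 60 tags or fewer.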

Other observations

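Because GPX1, GPX2 and GPX4 carry selenocysteine, the selenoproteins of the table were looked at. This list was written after these values were seen and is a description only. Of 19 selenoproteins listed 17 were measured, and 5 of these (GPX1, GPX2, GPX3, GPX4 and TXNRD1) are described above. Of the other 12, 3 were higher (25%, against 9.53% of all genes), 2 were lower (16.7%, against 12.2%) and 7 did not pass FDR 0.001 in Fisher's exact test. SEPW1, a small redox protein also called selenoprotein W, had 174 control tags against 468 in the library labelled shRNA-SOX2, a 2.96-fold higher share (95% Clopper-Pearson interval 2.48 to 3.54). SEPN1, selenoprotein N of the endoplasmic reticulum, had 143 and 371 tags (2.86-fold higher, 2.35 to 3.49). SEPP1, the selenium carrier selenoprotein P, had 0 and 15 tags, a ratio of 5.50 when the 0 is set at the floor of 3 tags. The lower end of its interval was 3.95, and it had fewer than the 20 tags asked for 2-fold differences. SELS, which takes part in the removal of misfolded proteins from the endoplasmic reticulum, had 501 and 198 tags (2.30-fold lower, 1.95 to 2.72), and SELT had 264 and 157 (1.53-fold lower, 1.25 to 1.87). SELK, SELENOF and SEPHS2 had between 176 and 296 tags in each library and did not pass.

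Of the 7 genes listed for selenocysteine synthesis and insertion 6 were measured, and none passed FDR 0.001 (0 of 6 in Fisher's exact test). SECISBP2, which binds the selenocysteine insertion element of the mRNA, had 95 and 47 tags (adjusted p = 0.00224, Fisher's exact test). The others had between 11 and 35 tags in each library, so differences of moderate size were not detectable at this depth.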
